A study of Mus musculus with 32 samples.

Results

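The transcripts of genes that drive DNA replication and mitosis were followed in mouse olfactory bulb before birth and in young adulthood, in controls and in mutants of Tshz1, which encodes a zinc finger transcription factor. A list of 42 cell cycle genes was taken, and every probe of the bead array that was assigned to one of them and detected above background (detection p under 0.05) on at least 4 of the 32 arrays was kept. This gave 48 probes of 31 genes, out of 25697 probes and 16593 named genes in the table. Of the other 11 genes, Mki67, Racgap1, Aurkb and Ccnb1 had no probe among those used here, and the 7 genes Bub1, Ccna2, Ccnb2, Ect2, Gmnn, Kif20a and Ube2c had only probes that were not kept. The listed genes had 66 probes in all, of which 16 were detected on 0 arrays and 2 on 1 to 3 arrays. The closest below the limit were a probe of Kif20a with 2 arrays and one of Tyms with 1, and the closest inside it were a probe of Tk1 with 4 arrays, one of Nusap1 with 5 and one of Kif18b with 8. Because 9 genes had several probes, probes of the same gene are numbered by brightness and were not counted as independent.

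The 4 groups held 8 arrays each, on a mixed background of C57/BL6, 129/Ola and CD1. Before birth (E18.5) both groups were wild type at Nestin (+/+), and the controls carried Tshz1 GFP/+ and the mutants Tshz1 GFP/delta. At 30 days (P30) both groups carried 1 Cre allele (Nestin +/Cre), and the controls were Tshz1 flox/+ and the mutants Tshz1 flox/GFP. Nestin-Cre acts in neural progenitors and their descendants, so at P30 the flox allele was a target in the neural lineage, and the E18.5 samples carried no Cre. The E18.5 controls carried the GFP allele and the P30 controls did not, and all P30 samples carried Cre and a flox allele. The submitters note a later swap of the control and mutant labels at P30; the labels as they now stand were used, and no probe named Tshz1 was among those used here to check them. Each age had its own 2 chips, with 4 controls and 4 mutants on each chip.

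A dividing cell first licenses its replication origins with the Mcm2 to Mcm7 helicase, makes deoxynucleotides, copies its DNA and then condenses and separates its chromosomes on the spindle. D-type cyclins act at the entry into the cycle, Cdk1 with its cyclins drives mitosis, and Cdc20 starts its exit. Many of these genes are transcribed only in cycling cells: those of S phase under E2F factors, and those of mitosis under complexes that bind the cell cycle homology region (CHR) together with NF-Y at CCAAT boxes. The olfactory bulb receives new interneurons throughout life from progenitors outside it.

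The promoters of several genes on which the results below turn show these elements. RefSeq (GRCm38.p6) gave a window from 250 bases before to 50 bases after the start for 26 of the 31 genes, 28 windows in all. Both strands were searched for the CHR words TTTGAA and TTTAAA, for CCAAT, and for the E2F words TTTGGCGC, TTTCCCGC, TTTCGCGC and TTTGCCGC. Ccnd1, Ccnd2, Mcm4, Pbk and Tpx2 had no window, so Ccnd2 and Pbk, which also carry main differences below, could not be shown. The windows of Top2a, Cdk1, Cdc20 and Cenpa are shown because these genes had a window and carry main differences described below. That of Mcm6 is shown as a replication gene for contrast. Capitals mark the words found on either strand. The Top2a window is chr11:99024140-99024439 on the minus strand, that of Cdk1 is chr10:69352863-69353162 on the minus strand and that of Cdc20 is chr4:118437294-118437593 on the minus strand. The Cenpa window is chr5:30666636-30666935 on the plus strand and that of Mcm6 is chr1:128359656-128359955 on the minus strand.
Top2a: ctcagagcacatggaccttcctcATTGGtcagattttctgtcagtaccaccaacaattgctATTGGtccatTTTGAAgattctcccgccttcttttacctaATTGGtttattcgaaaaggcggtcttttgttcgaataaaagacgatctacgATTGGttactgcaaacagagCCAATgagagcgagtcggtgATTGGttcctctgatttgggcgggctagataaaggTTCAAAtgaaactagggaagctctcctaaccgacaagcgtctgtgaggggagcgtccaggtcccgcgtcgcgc
Cdk1: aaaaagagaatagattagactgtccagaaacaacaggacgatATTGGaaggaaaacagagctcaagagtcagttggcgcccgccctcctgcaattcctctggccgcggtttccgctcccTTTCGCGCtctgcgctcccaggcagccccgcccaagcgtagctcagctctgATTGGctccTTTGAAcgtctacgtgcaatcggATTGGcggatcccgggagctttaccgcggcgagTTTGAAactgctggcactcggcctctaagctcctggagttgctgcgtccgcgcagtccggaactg
Cdc20: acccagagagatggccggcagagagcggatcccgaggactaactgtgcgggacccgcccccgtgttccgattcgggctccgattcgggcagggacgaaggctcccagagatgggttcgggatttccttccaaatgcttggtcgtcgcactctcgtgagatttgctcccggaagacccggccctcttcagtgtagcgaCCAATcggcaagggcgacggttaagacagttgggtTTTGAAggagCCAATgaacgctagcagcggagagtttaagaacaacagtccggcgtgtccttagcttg
Cenpa: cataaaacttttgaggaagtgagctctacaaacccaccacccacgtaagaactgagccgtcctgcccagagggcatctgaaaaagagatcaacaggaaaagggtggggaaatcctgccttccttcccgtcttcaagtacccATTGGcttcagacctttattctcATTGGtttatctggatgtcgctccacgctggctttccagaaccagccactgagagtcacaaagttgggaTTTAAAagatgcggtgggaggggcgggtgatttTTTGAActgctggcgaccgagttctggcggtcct
Mcm6: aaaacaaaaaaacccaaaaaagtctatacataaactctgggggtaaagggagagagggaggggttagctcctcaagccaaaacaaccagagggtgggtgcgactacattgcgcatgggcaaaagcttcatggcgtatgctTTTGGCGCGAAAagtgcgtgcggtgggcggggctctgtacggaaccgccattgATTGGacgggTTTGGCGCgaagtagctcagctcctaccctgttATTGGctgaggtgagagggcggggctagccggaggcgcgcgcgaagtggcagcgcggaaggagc
The Top2a window held TTTGAA 2 times and CCAAT 6 times, the Cdk1 window TTTGAA 2 times, CCAAT 3 times and 1 E2F word, and the Cdc20 window TTTGAA 1 time and CCAAT 2 times. The Cenpa window held both CHR words 1 time each and CCAAT 2 times. The Mcm6 window held 0 CHR words, CCAAT 2 times and 3 E2F words, of which a pair overlap by 4 bases.

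Over the 14 windows of mitosis genes and Top2a, 12 (85.7%) held TTTGAA and 0 held an E2F word. Over the 12 windows of replication and nucleotide synthesis genes, 1 (8.33%) held TTTGAA, and 5 (41.7%) held an E2F word. Among all 32851 windows of 27025 genes these shares were 17.9% for TTTGAA and 2.26% for an E2F word. The 2 windows of the cyclin and Cdk1 group, those of Ccne1 and Cdk1, were counted in neither set. That of Cdk1, a mitotic kinase, held both TTTGAA and 1 E2F word. CCAAT lay in 21 of the 28 windows (75%) against 37.4% of all windows, and TTTAAA in 9 of 28 (32.1%) against 13.2%. A CHR word together with CCAAT was present in 11 of the 14 mitotic windows (78.6%) and in 10.7% of all windows. The mitotic windows without TTTGAA were those of Birc5 and Nusap1. These matches describe letters in the windows and were not tested as binding sites.

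The share of probes detected ran from 49.3% to 55.2% on E18.5 arrays and from 40.1% to 49.3% on P30 arrays. E18.5 control replicates 6 and 8 stood somewhat apart, with mean correlations to the other arrays of their group of 0.977 and 0.981, against 0.985 to 0.987 for the other 6. P30 mutant replicates 1 and 2 did so too, with 0.953 and 0.959 against 0.968 to 0.975, and they had the lowest shares of detected probes of all arrays. Results that change without either pair are given with both values. Of 10 marker genes of olfactory bulb neurons 9 were detected, among them Th, Tbx21 and Eomes, and Gad2 was not. At P30 the oligodendrocyte list, with Mbp and Mog, had a summed linear level of 32010.5 to 43798 in controls, and at E18.5 of 880 to 1292.

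Between the ages, most cell cycle transcripts went from high levels at E18.5 to near or below detection at P30. The comparison was made between controls, on log2 intensities with all 32 arrays normalized together. With limma, 38 of the 48 probes were lower at P30 (adjusted p under 0.05 and at least 2-fold) and 0 were higher, with 12.4% of all 15105 tested probes lower by the same rule. The median fitted change of the 48 probes was -2.44 on the log2 scale, beside -0.03 for all probes. Because 24 of them were detected on 0 P30 controls and have only a bound there, the median was also taken with these at their bound, which gave -2.14. In 39 probes all P30 controls lay below all E18.5 controls, as did 13.1% of all probes. All 48 probes were detected on at least 4 E18.5 arrays and 25 on at least 4 P30 arrays. The probes outside these 25 entered only through E18.5, the age at which they were high. These counts therefore describe the list rather than test it. Age, chip and the genotype of the controls cannot be told apart here, and in bulk tissue neither can fewer dividing cells and less RNA per cell. Other cell type lists changed between the same controls, with 4 of 6 neuroblast probes lower, 6 of 8 meningeal probes lower and 8 of 9 oligodendrocyte probes higher. Of all 15105 tested probes 1661 were higher by the same rule. The part of these cell types in the fall was not tested.

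**Figure D1:**
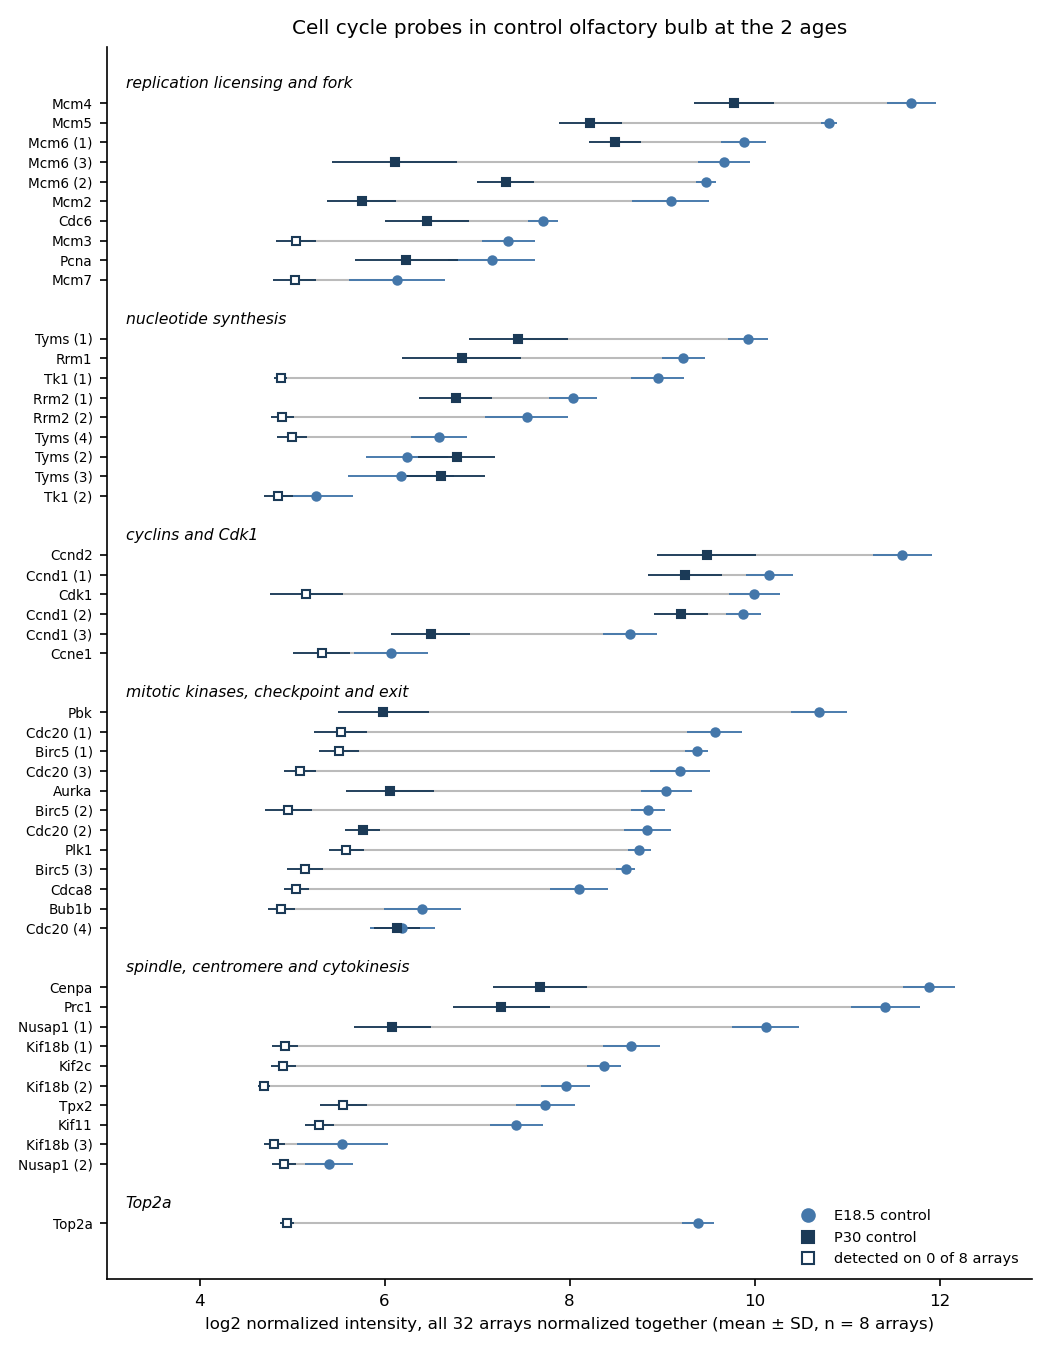
Mean log2 intensity ± SD (x axis, all 32 arrays normalized together, n = 8 arrays per group) of the 48 cell cycle probes in E18.5 controls (circles) and P30 controls (squares, open where 0 of 8 arrays detected the probe), grouped by role and numbered by brightness within a gene. Pbk falls from 10.70 to 5.99 and Top2a from 9.39 to 4.94, while Mcm4, Ccnd2 and the brighter Ccnd1 probes stay above 9 at P30 and Tyms probes 2 and 3 and Cdc20 probe 4 show little or no fall.

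Top2a, the topoisomerase that untangles replicated chromosomes, had values of 9.16, 9.41 and 9.62 (lowest, median and highest) in E18.5 controls and 4.83, 4.95 and 5.03 in P30 controls, where no array detected it. This was at least 9.59-fold lower, a bound set by the dimmest detected signals of the P30 arrays (limma, log2 change -4.44, SE 0.112, adjusted p = 7.17e-28). Cdk1, the mitotic kinase, had 9.67, 9.92 and 10.57 at E18.5 and 4.75, 5.06 and 5.90 at P30, again with 0 of 8 P30 controls detected. It was at least 14.6-fold lower (log2 change -4.85, SE 0.185, adjusted p = 2.90e-22). For both genes the values of the 2 ages lay far apart, with a spread within each group that was a small part of the gap.

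The mitotic kinases, checkpoint and exit genes had a median fitted change of -3.32 (-2.85 with bounds), and 11 of their 12 probes were lower, 8 of the 12 being detected on 0 P30 controls. Pbk, a mitotic protein kinase, fell from 10.70 ± 0.30 to 5.99 ± 0.49 (mean ± SD, n = 8 each), a log2 change of -4.71 (SE 0.26). Cdc20, the activator of the anaphase-promoting complex, had 3 probes that fell by at least 10.9-fold, by at least 8.40-fold and, for probe 2, by 3.08 on the log2 scale. Its dimmest probe, probe 4, stood at 6.19 ± 0.35 in E18.5 controls and 6.14 ± 0.25 in P30 controls, so the probes of this gene disagreed. Birc5 (survivin), a subunit of the chromosomal passenger complex, fell in each of its 3 probes, by at least 9.50-fold, 6.59-fold and 5.58-fold. The kinase Aurka was still detected on 4 P30 controls and changed by -2.99. Plk1, Cdca8 (another passenger subunit) and Bub1b were detected on 0 P30 controls and were at least 6.18-fold, 3.93-fold and 1.21-fold lower.

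The spindle, centromere and cytokinesis genes had a median fitted change of -3.36 (-2.04 with bounds), and 8 of their 10 probes were lower, 7 of the 10 being detected on 0 P30 controls. Cenpa, the histone H3 variant that marks centromeres, was among the brightest members before birth at 11.89 ± 0.28 and was still detected on all P30 controls at 7.68 ± 0.51 (log2 change -4.21, SE 0.182). Prc1, which bundles the microtubules of the spindle midzone, likewise remained detected, at 7.26 ± 0.52 after 11.41 ± 0.37, and was 17.8-fold lower. Nusap1, a spindle-associated protein, had a brighter probe that fell by 4.03 and was detected on 3 P30 controls. Kif2c and probes 1 and 2 of Kif18b, kinesins that shorten microtubules, fell by at least 4.75-fold, 5.83-fold and 3.56-fold. The exceptions to the 2-fold rule were the dimmest probe of Nusap1 and that of Kif18b, both detected on 0 P30 controls, for which no fold can be given.

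The licensing and fork group had a median fitted change of -2.04 (-1.65 with bounds) with 9 of 10 probes lower, Pcna, the sliding clamp of DNA polymerases, being the exception at -0.92. Mcm4, a helicase subunit, stood at 9.78 ± 0.43 in P30 controls after 11.69 ± 0.26, and Mcm5 at 8.22 ± 0.34 after 10.80 ± 0.09. The 3 probes of Mcm6 gave changes of -1.39, -2.17 and -3.56, and Mcm2, detected on 2 P30 controls, gave -3.34. In the nucleotide synthesis group 6 of 9 probes were lower, with a median fitted change of -1.59 (-1.27 with bounds). Tk1, thymidine kinase, had a brighter probe with at least a 7.09-fold fall, and Rrm1, the large subunit of ribonucleotide reductase, changed by -2.39. Tyms, thymidylate synthase, had a probe that changed by -2.48, one detected on 0 P30 controls that was at least 1.38-fold lower, and another 2 with 0.54 (adjusted p = 0.0352, limma, under 2-fold) and 0.44 (adjusted p = 0.105), so that its direction differed between probes.

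Of the cyclins, Ccnd2, a D-type cyclin, fell by 2.11 to a P30 control level of 9.48 ± 0.53. The 2 brighter probes of Ccnd1 were at 9.24 ± 0.40 and 9.20 ± 0.29 at P30 and changed by -0.92 and -0.68, while probe 3 changed by -2.16. Ccne1, which acts at the start of S phase, was detected on 0 P30 controls, and no fold can be given. In this group 3 of 6 probes were lower by the 2-fold rule.

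The wider cell cycle machinery was read from 4 lists of other genes. Of 34 probes of kinetochore, condensin and spindle genes 25 were lower at P30 and 0 higher, and Kif4 and Cdca2, with the smallest p and 0 P30 controls detected, were at least 5.23-fold and 5.94-fold lower. Of 29 probes of origin, fork and S phase genes 18 were lower and 0 higher. They were led by Uhrf1, which takes part in the upkeep of DNA methylation after replication (-3.81), and by Mcm10 (at least 4.41-fold lower). Of 13 probes of E2F, DREAM and FoxM1 regulators 8 were lower and 0 higher, with Mybl2 at -2.93 and a probe of E2f2 at least 2.77-fold lower. The Cdk inhibitors went both ways, with 3 of 17 probes lower and 4 higher, beside 1867 lower and 1661 higher of all 15105 probes. Cdkn1c (p57), an inhibitor of G1 kinases, fell by 3.52 from 13.32 ± 0.23, and Cdkn1a (p21) rose by 2.27 from 10.19 ± 0.28.

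At E18.5 the question was whether loss of Tshz1 moved the cell cycle genes before birth. With limma, 0 of the 48 probes passed the threshold, when 0.484% of all 14455 tested probes did (10 higher and 60 lower). At an unadjusted p under 0.05, 7 of the 48 were higher and 0 lower, beside 3.99% of all probes higher. In 41 of the 48 probes the mutant mean was above the control mean, as it was in 50.4% of all probes, and the median difference was 0.15 against 0.00. The probes share arrays and many rise and fall together in a cell, so this count is a description and no test. On chip A the mutant mean was higher in 43 probes and on chip B in 35, with 34 higher on both.

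**Figure D2:**
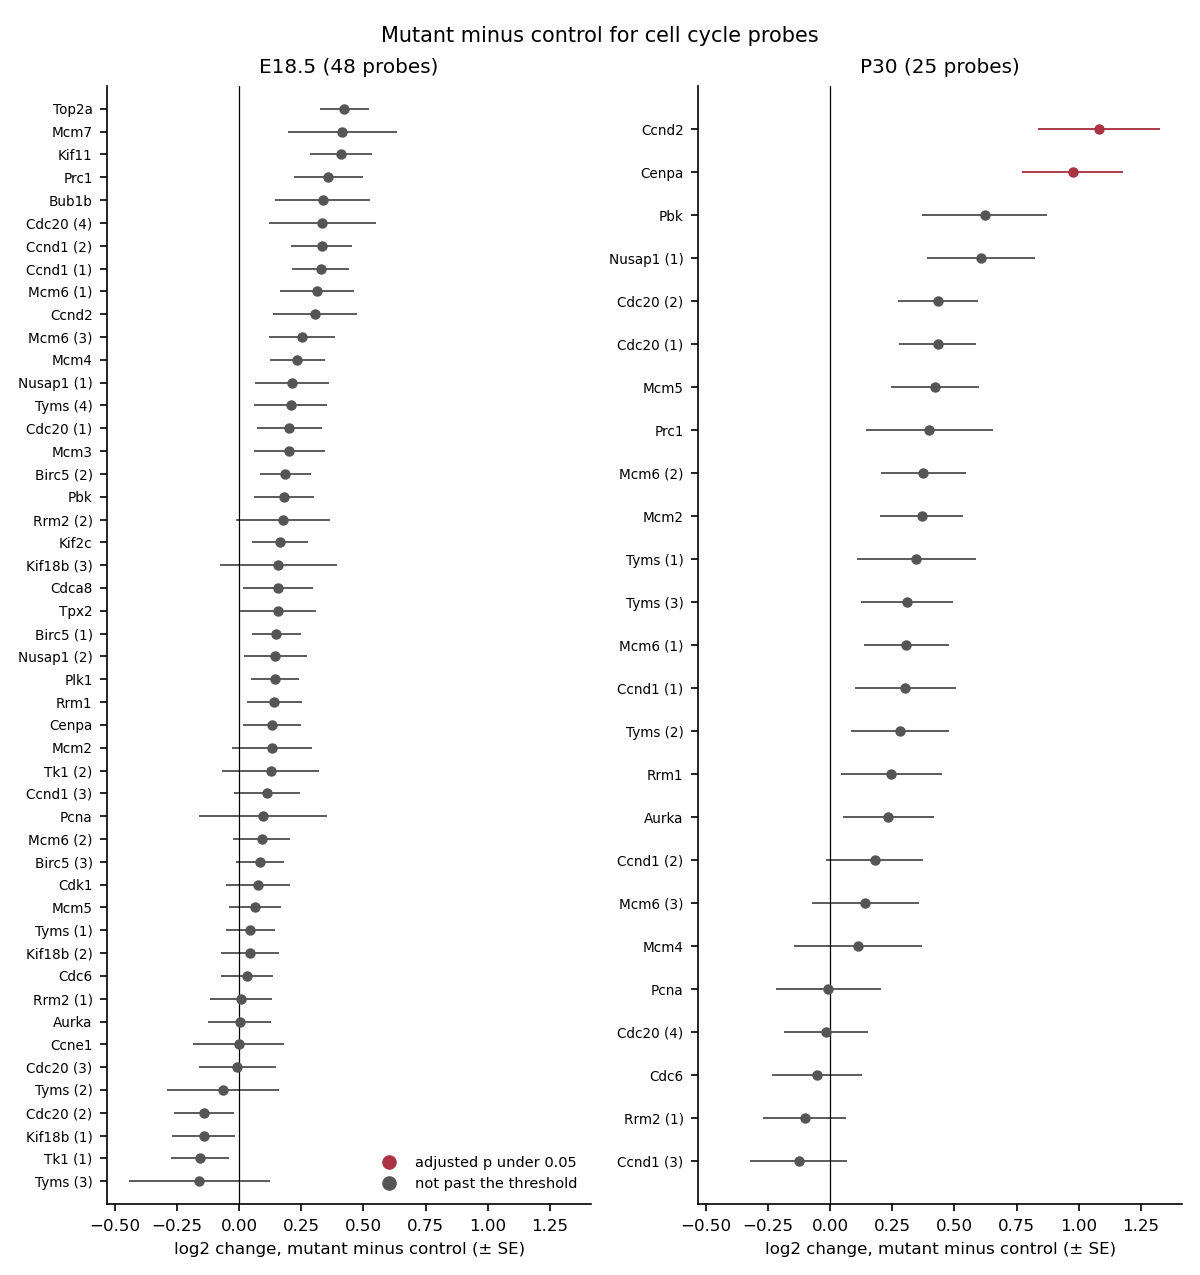
Log2 change between mutant and control (x axis, ± SE of the limma fit) of each cell cycle probe tested at E18.5 (left, 48 probes) and P30 (right, 25 probes), ordered by size. At E18.5 no probe passes an adjusted p of 0.05 and 41 lie above 0, and at P30 Ccnd2 (1.08) and Cenpa (0.98) pass and 20 lie above 0.

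Top2a had the smallest p of the members. On intensities normalized within E18.5 it had values of 9.68, 9.92 and 10.14 in controls (lowest, median and highest) and 10.12, 10.29 and 10.52 in mutants, a log2 difference of 0.42 (limma, SE 0.0991, adjusted p = 0.0715). In 7 of 8 mutants it lay above every control. All 8 mutants lay above all controls in 0 member probes and in 0.0346% of all probes. Top2a passed the threshold without background correction (adjusted p = 0.0348) and without the filter on dim probes (adjusted p = 0.0426). In 10 of 12 other settings and in all 16 fits with 1 array left out it did not pass, with adjusted p up to 0.994 (limma).

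Kif11, the kinesin that pushes spindle poles apart, had 7.48, 7.74 and 8.36 in controls and 8.00, 8.30 and 8.55 in mutants (difference 0.41, SE 0.125, adjusted p = 0.301, limma). Prc1 ran from 11.10 to 12.23 in controls (mean 11.90) and from 12.08 to 12.53 in mutants (mean 12.26; difference 0.36, SE 0.138, adjusted p = 0.497). For both genes the mutants lay in the upper part of the control range or above it, and the controls were the more spread group. The 2 brighter Ccnd1 probes differed by 0.33 each (adjusted p = 0.413 and 0.447) and probe 3 by 0.11. Mcm6 probe 1 and Mcm4 were the other probes with an unadjusted p under 0.05, at 0.31 and 0.23.

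**Figure D3:**
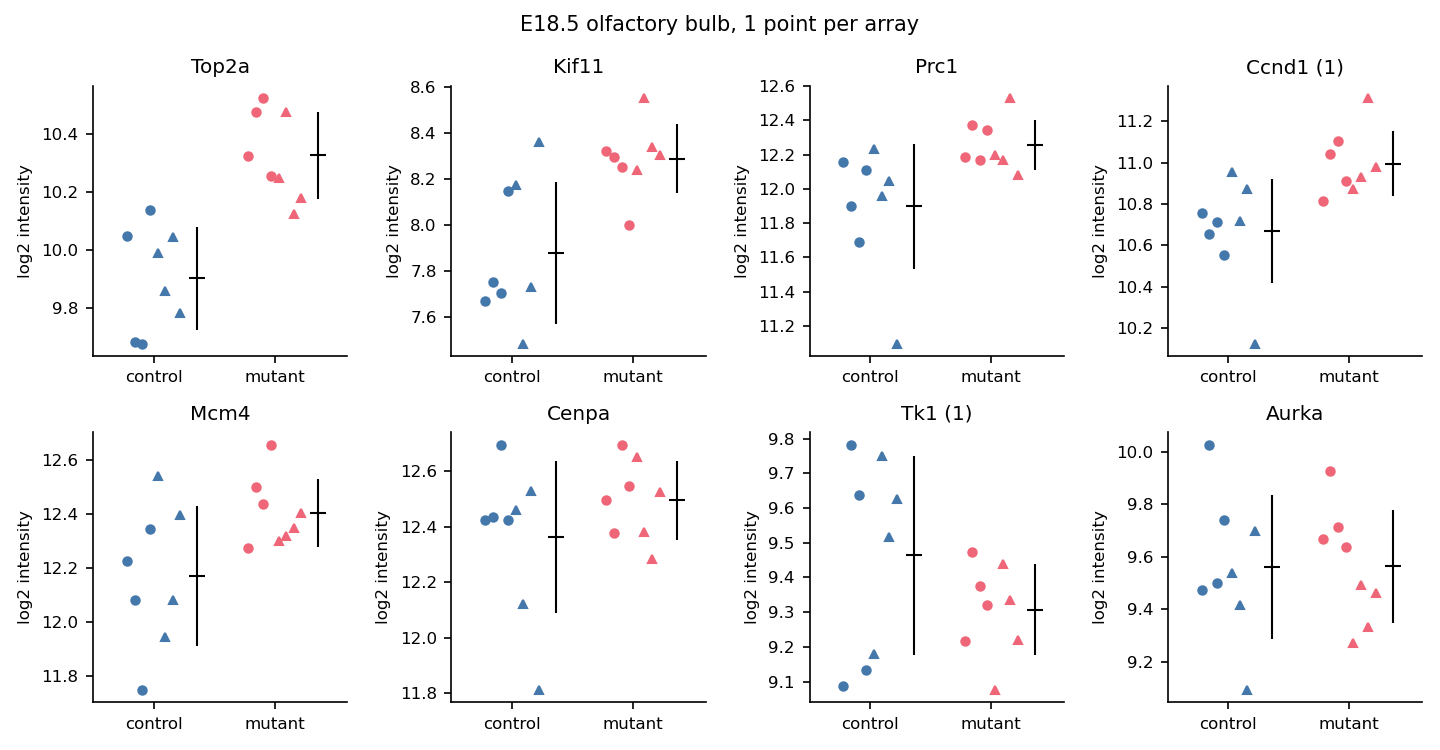
Log2 intensity (y axis, normalized within E18.5) of 8 cell cycle probes on each E18.5 array, with circles for chip A, triangles for chip B and the bar for mean ± SD (n = 8). Top2a in mutants lies between 10.12 and 10.52 with controls from 9.68 to 10.14, while Cenpa, Tk1 and Aurka overlap throughout.

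By role, all 10 licensing and fork probes were higher in mutants with a median of 0.17, as were 5 of 6 probes of cyclins and Cdk1 (median 0.21) and 9 of 10 spindle probes (0.16). The mitotic kinase, checkpoint and exit probes had a median of 0.15 with 10 of 12 higher. The nucleotide synthesis probes had a median of 0.04 with 6 of 9 higher, and among them Tk1 probe 1 was at -0.16. In none of these groups did a probe pass the threshold after adjustment.

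Of the other cell cycle lists, 0 probes passed at E18.5. In the kinetochore, condensin and spindle list 29 of 34 probes were above 0 with a median of 0.18, and 9 had an unadjusted p under 0.05, all higher. Spc25, a subunit of the Ndc80 complex, differed by 0.38 (adjusted p = 0.355) and Anln, which acts in cytokinesis, by 0.34 (adjusted p = 0.398). The S phase list had 18 of 29 probes above 0 with a median of 0.04, with Mcm10 at 0.41 and Dbf4, the partner of the Cdc7 kinase, at 0.28. In the E2F list 10 of 13 were above 0, with Rbl1 at 0.35 and E2f2 at 0.39. Of the Cdk inhibitors 6 of 16 were above 0, and Cdkn1a was at -0.37 and Cdkn2d at -0.19 (adjusted p = 0.494 and 0.683).

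Markers of other cell types moved beside these differences at E18.5. Of the mature neuron list 2 of 6 probes fell, Rbfox3 by 0.74 and Camk2a by 0.80, and the summed level of the list was 16045 to 23203 in controls and 13409 to 16482 in mutants. Of the bulb neuron list 3 of 11 probes fell, among them Th by 0.81. Radial glia markers had 9 of 11 probes above 0 and meningeal markers 8 of 8, with 0 past the threshold, and summed levels of 18460 to 27206 against 23713 to 29040 for radial glia and of 10655 to 15709 against 13987 to 21309 for meninges. The part of these cell types in the differences above was not tested.

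At P30 the same question was asked in the adult bulb, where 25 of the 48 probes, of 17 genes, were detected on enough arrays to be tested. With limma, Cenpa and Ccnd2 were higher in mutants and 0 of the 25 were lower, with 1.78% of all 12950 tested probes higher. At an unadjusted p under 0.05, 9 of the 25 were higher and 0 lower, beside 7.82% of all probes higher. The mutant mean was above the control mean in 20 of the 25, with a median difference of 0.31 against 0.00 over all probes. With all 48 probes kept in the fit, an alternative chosen after seeing the data, 41 were above 0 and the median was 0.17. Top2a was detected on 0 P30 arrays and was not tested.

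Cenpa had values of 6.26, 7.12 and 7.37 in P30 controls (lowest, median and highest, normalized within P30) and 7.35, 7.95 and 8.53 in mutants. It was detected on all 16 arrays, and 7 of 8 mutants lay above every control. The difference was 1.97-fold (limma, log2 change 0.98, SE 0.203, adjusted p = 0.00566), with 0.86 on chip A and 1.09 on chip B. Ccnd2 had 8.07, 8.59 and 9.71 in controls and 8.99, 9.66 and 10.49 in mutants. The groups overlapped, with control replicate 1 at 9.71, above 5 of the mutants, and only 6 of the 8 controls below every mutant. The difference was 2.12-fold (log2 change 1.08, SE 0.246, adjusted p = 0.0115), with 0.76 on chip A and 1.40 on chip B. Neither gene passed with median scaling in place of quantile normalization (adjusted p = 0.0758 and 0.0852) or in the 8 arrays of chip A alone (0.200 and 0.429), and both passed whichever single array was left out. In 0 of the 25 probes did all mutants lie above all controls, as they did in 0.456% of all probes.

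**Figure D4:**
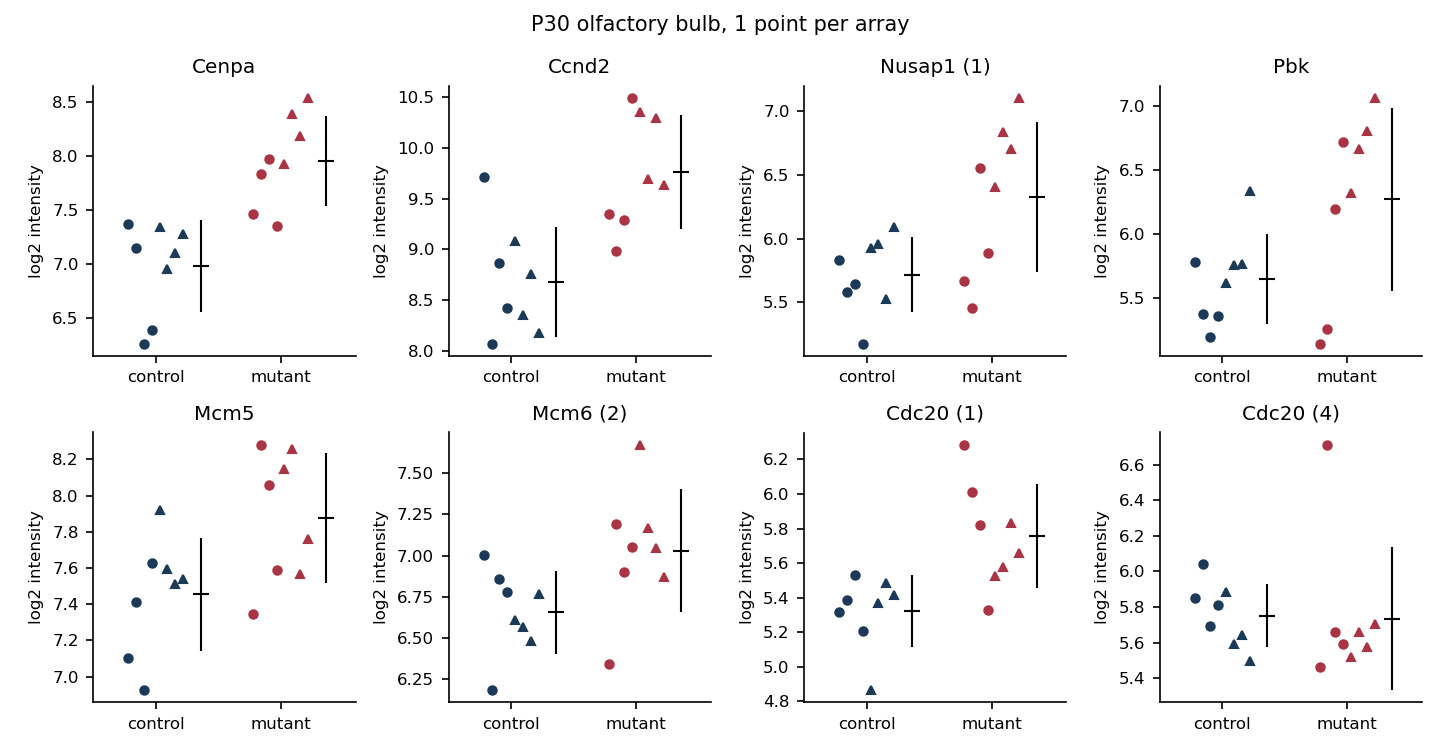
Log2 intensity (y axis, normalized within P30) of 8 cell cycle probes on each P30 array, with circles for chip A, triangles for chip B and the bar for mean ± SD (n = 8). Cenpa in mutants runs from 7.35 to 8.53 with controls from 6.26 to 7.37, the low mutants of Nusap1 and Pbk are replicates 1 and 2, and mutant replicate 2 alone lifts Cdc20 probe 4 to 6.71.

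The remaining probes with an unadjusted p under 0.05 did not pass after adjustment. Nusap1 probe 1 had 5.18, 5.74 and 6.09 in controls and 5.46, 6.47 and 7.10 in mutants, and was detected on 3 controls and 6 mutants (difference 0.61, SE 0.217, adjusted p = 0.134, limma). Pbk had 5.20, 5.69 and 6.33 in controls and 5.15, 6.49 and 7.06 in mutants, also with 3 and 6 arrays detected (0.62, SE 0.25, adjusted p = 0.200). In both genes mutant replicates 1 and 2 were at the level of the controls and most other mutants above it. Cdc20 probe 2, detected on 1 control and 5 mutants, differed by 0.43 (adjusted p = 0.154). Cdc20 probe 1 was detected on 0 controls and 5 mutants, so that it entered the test through the mutants alone, and it was at least 1.01-fold higher (adjusted p of the fit 0.134). Cdc20 probe 4 differed by -0.02. Mcm5 differed by 0.42, Mcm6 probe 2 by 0.37 and Mcm2 by 0.37 (adjusted p = 0.223, 0.283 and 0.279).

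Without P30 mutant replicates 1 and 2, which were left out together after seeing the data, 4 of the 25 probes were higher. They were Cenpa (log2 change 1.09, adjusted p = 0.00268), Ccnd2 (1.28, adjusted p = 0.00210), Pbk (1.01, adjusted p = 0.00186) and Nusap1 probe 1 (0.89, adjusted p = 0.00618, limma). The arrays left out held the low mutant values of Pbk and Nusap1, so the calls of these genes are no separate support. When all 32 arrays were fitted together, 6 probes passed, namely Cenpa, Ccnd2, Pbk, Nusap1 probe 1 and Cdc20 probes 1 and 2, and the number of probes of any gene that passed went from 519 to 1218. Nusap1 probe 1 also passed with chip as a block (adjusted p = 0.0450), on chip B alone (0.0361) and without mutant replicate 2 (0.0441), and Cdc20 probe 1 in the authors' normalized table (0.0484).

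By role, the 3 spindle probes tested at P30 were all above 0 with a median of 0.61 and the 5 mitotic kinase, checkpoint and exit probes had a median of 0.43. The 8 licensing and fork probes had a median of 0.22 with 6 above 0, the 5 nucleotide synthesis probes 0.28 with 4 above 0, and the 4 cyclin probes 0.24 with 3 above 0. The lowest values were those of Ccnd1 probe 3 at -0.13 and Rrm2 at -0.10, neither near the threshold. Probes tested in a role group were few, and which ones were tested depended on detection in either genotype.

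The other cell cycle genes gave a mixed picture at P30. Of the Cdk inhibitor list 2 of 16 probes fell and 0 rose, both of them probes of Cdkn1a. Of all 12950 tested probes 289 fell and 230 rose. The brightest Cdkn1a probe had 10.82, 11.92 and 12.36 in controls and 9.95, 10.23 and 12.29 in mutants (log2 change -1.30, SE 0.278, adjusted p = 0.00676), the other probe to fall changed by -0.97 (adjusted p = 0.0132), and the remaining one by -0.80 (adjusted p = 0.290). For the brightest probe the highest mutant lay in the upper part of the control range. Gadd45a, a stress-induced growth arrest gene, differed by 0.73 (adjusted p = 0.0676). Of 19 S phase probes 1 rose, that of Uhrf1, from 6.74 ± 0.27 to 7.42 ± 0.45 (log2 change 0.68, adjusted p = 0.0406), and Chaf1b differed by 0.41 (adjusted p = 0.285). Of 9 probes of the E2F list and 8 of the kinetochore list 0 passed, with Rbl1 at 0.48, Foxm1 at 0.21, Ncaph at 0.51 and Incenp at -0.37. The medians of the 4 lists lay between -0.02 and 0.12.

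Glial and microglial markers differed between the P30 groups as well. Vim rose by 0.82, Gfap by 1.48, and C1qa and C1qb by 1.06 each. The meningeal marker Foxc1 rose by 0.79, while the neuronal markers Rbfox3 and Camk2a fell by 1.33 and 1.05 (limma, all of these past the threshold). Of the bulb neuron list 2 of 11 probes rose, Slc17a7 by 1.12 and Th by 0.70. The summed level of the microglia list, with 2 of 7 probes higher, was 2310 to 4398 in controls and 3941 to 8164 in mutants. That of the astrocyte list, with 1 of 7 probes higher, was 14675 to 23843 and 15790 to 33433. The radial glia list had 1 of 10 probes higher, with 28488 to 42426 in controls and 34846 to 43822 in mutants. The meningeal list, with Foxc1 as 1 of 6 probes higher, had 3317 to 8471 and 2771 to 8104. Its other 5 probes were below 0, and the median of the list was -0.15. The neuroblast, oligodendrocyte precursor and endothelium lists had 0 probes past the threshold, and the neuroblast sums were 12893 to 22093 and 11583 to 27351. Sox10, Csf1r and Sox11 had no probe among those used here, and Olig2 was not detected. The part of these cell types in the cell cycle differences was not tested.

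Whether the mutant difference was unlike at the 2 ages was tested as an interaction over all 32 arrays. The 2 mutant comparisons also differed in their Tshz1 alleles, in Cre and in their chips. An effect of age cannot be told apart from these here. With limma, 0 of the 48 probes passed, while 1.62% of all 15105 tested probes did. At an unadjusted p under 0.05, 4 of the 48 were higher and 0 lower, beside 1051 higher and 940 lower of all 15105 probes. Of the 48, 25 were above 0 (52.1%) with a median of 0.04, beside 50.5% and 0.00 for all probes. Cenpa was nearest, with a difference between mutant and control larger by 0.93 at P30 than at E18.5 (SE 0.257, adjusted p = 0.0534). When the replicate numbers entered the fit as a block, 458 probes of any gene passed rather than 244, and Cenpa was among them (adjusted p = 0.0263). Cenpa also passed with chip as a block (0.0148), without E18.5 control replicates 6 and 8 (0.0309) and without P30 mutant replicates 1 and 2 (0.0252). It passed as well when any 1 of 6 arrays was left out (E18.5 control 8, P30 controls 1, 5 and 8, P30 mutants 1 and 4), with adjusted p from 0.0240 to 0.0387. In 26 of the 32 fits with 1 array left out and in 5 of 10 other settings Cenpa did not pass. Its adjusted p reached 0.249 (limma), and its difference was as low as 0.64 in another setting. Without P30 mutant replicates 1 and 2 Pbk passed too, at 1.13 (limma, adjusted p = 0.0114).

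The other members with the smallest p for this difference were Cdc20 probe 2 at 0.74 (adjusted p = 0.0894, and 0.0267 without P30 mutant replicate 3), Tk1 probe 1 at 0.52 (0.116, detected on 0 P30 arrays), Ccnd2 at 0.74 (0.273) and Mcm5 at 0.38 (0.446). Top2a, also detected on 0 P30 arrays, gave -0.23. The Cdk inhibitor Cdkn1a gave -0.94 (adjusted p = 0.105), Gadd45a 0.92 (0.198) and Uhrf1 0.72 (0.128), and none of the 4 other lists had a probe past the threshold (limma). Of the cell type lists 2 bulb neuron probes, 1 astrocyte probe and 1 microglia probe passed, all higher at P30. Among the 25 probes tested at both ages, 22 were above 0 at E18.5, 20 at P30 and 17 at both. Of all probes 50.4% were above 0 at E18.5 and 50.3% at P30, and their share at both ages was not taken. With most of the 25 above 0 at each age, the count at both is no test of agreement between the ages.

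The mean level of the 48 probes per array shows how the groups sat against each other on the joint scale. It was 8.48, 8.56 and 8.65 in E18.5 controls (lowest, median and highest) and 8.60, 8.69 and 8.83 in E18.5 mutants. At P30 it was 6.02, 6.12 and 6.22 in controls and 6.22, 6.38 and 6.52 in mutants. The groups overlapped at E18.5. At P30 the highest control (6.222) lay just below the lowest mutant (6.224). On the scale normalized within P30 the highest control (5.874) lay just above the lowest mutant (5.873). The difference between group means was 0.14 at E18.5 and 0.26 at P30, the latter 0.17 without background correction and 0.19 with median scaling, and no test was made of these means. On the scale normalized within P30, mutant replicate 8 was the highest P30 array in 12 of the 48 probes.

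**Figure D5:**
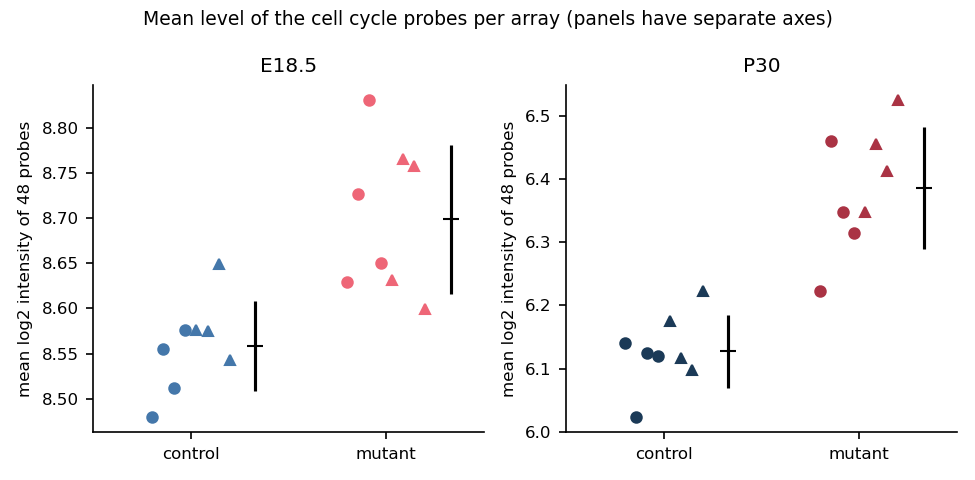
Mean log2 intensity of the 48 cell cycle probes on each array (y axis, all 32 arrays normalized together, separate axes for the 2 ages), with circles for chip A, triangles for chip B and the bar for mean ± SD (n = 8). The E18.5 arrays lie between 8.48 and 8.83 and the P30 arrays between 6.02 and 6.52, with most mutants above the controls of their age.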

How the data were processed

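RNA of olfactory bulb was measured on Illumina bead arrays after conversion to biotinylated cRNA, per the labels. The deposited table holds raw signal intensities and detection p-values of 25697 probes, per the file headers, from GenomeStudio per the submitters' processing notes, which give no version. The authors' normalized intensity table was used only as an alternative. Of the probes 23978 had 1 gene name and 1719 none.

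Intensities were processed with neqc (limma 3.58.1, R 4.3.3: background from the detection p-values, offset 16, quantile normalization, log2), within each age for the mutant comparisons and over all 32 arrays otherwise. A probe entered when detected on at least 4 arrays of the fit. The number of arrays limits the precision. Each comparison was tested two-sided with limma and adjusted over all its probes by the Benjamini-Hochberg method, and the age comparison also needed a 2-fold change. For a probe detected on no array of a group, the fold is a lower bound. The model was tested on simulated data.

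The members, gene lists and tests were chosen with earlier results of these data known. Named are member probes past a threshold (the 8 largest in a direction), the 5 of smallest p, Mki67, Top2a, other probes of these genes and the 2 genes of smallest p in each list; other members were named after their values were seen. Cell type lists covered radial glia, intermediate progenitors, neuroblasts, mature and bulb neurons, oligodendrocytes and their precursors, astrocytes, microglia, endothelium, pericytes, erythroid cells and meninges; lists not given in the results had 0 probes past the threshold in either mutant comparison.

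At E18.5 same-numbered controls and mutants, on the same chip, deviated together in all 8 pairs (r from 0.131 to 0.350). Of the 8 controls 2, and of the 8 mutants 3, correlated best with their own number. The check did not separate pairs from a shared chip, so it cannot show whether the numbers pair the samples. The values given are from the fit without the replicate numbers. With the replicate numbers as a block, 65 probes in place of 70 and again 0 members passed at E18.5 (limma, Top2a adjusted p = 0.156). No source used here says whether replicates came from different animals, so the p-values cover only the spread between these samples. No 2 arrays were alike beyond r = 0.994. The alternatives were other background correction, scaling, filters, one probe per gene, blocks, single chips and arrays left out.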

Additional observations from a re-analysis of the deposited data

Results flagged for a closer look

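Among 196 groups of 8 arrays, 1 for each of the 48 probes in each group and 1 for the mean level, 11 held an array that stood away from the other 7, and chance alone flags about 1 group in 20. All values are log2 intensities normalized within the age. Among E18.5 controls, replicate 6 was high for Kif18b probe 2 at 9.07 (next 8.49) and for Cdc20 probe 3 at 10.45 (next 9.76), and replicate 8 was high for Ccnd1 probe 3 at 9.84 (next 9.23) and low for Cdc20 probe 1 at 9.42 (next 9.98). Replicate 7 of the same group was high for Rrm2 probe 2 at 9.05 (next 8.14). Among E18.5 mutants, replicate 2 was low for the checkpoint kinase Bub1b at 6.29 (next 6.95) and for Ccne1 at 5.71 (next 6.21). Replicate 5 was low for Cdc20 probe 3 at 9.01 (next 9.60) and high for Pbk at 11.67 (next 11.42). Among P30 mutants, replicate 2 was high for Cdc20 probe 4 at 6.71 (next 5.70) and replicate 3 for Kif2c at 5.19 (next 4.93), a gene detected on too few P30 arrays to be tested there.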

How the results depend on the processing

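The P30 calls of Cenpa and Ccnd2, and the absence of a call at E18.5 and for the difference between ages, depended on some settings, and none of the largest and smallest-p members followed across settings changed direction. Of other members named at P30, Ccnd1 probe 3 (-0.13) was 0.0117 without mutant replicates 1 and 2, and Rrm2 (-0.10) was 0.0751 within chip B. At E18.5, 70 probes of any gene passed, with 32 on chip A alone, 3 on chip B alone and 30 with all 32 arrays fitted together, and among members 1 (Top2a) in place of 0 without background correction and 1 without the filter. At P30, 519 passed, with 145 on chip A alone, 202 on chip B alone and 1218 with all 32 arrays, and in place of 2 members 0 passed with median scaling, 0 on chip A alone, 6 with all 32 arrays and 4 without mutant replicates 1 and 2. The member median of 0.31 at P30 was 0.19 without background correction, 0.25 with median scaling, 0.43 in the authors' normalized table, 0.17 without the filter or with all 48 probes kept, 0.24 on chip A and 0.20 with all 32 arrays, and 0.24 to 0.36 with 1 array left out. The mean level per array differed at P30 by 0.17 without background correction and 0.19 with median scaling. Between the ages 3528 probes passed, with 1861 without background correction and 9230 by adjusted p alone; the member median was -1.75, -2.92 (median scaling, which moved the median of all probes to -0.49), -2.97 (authors' table), -2.82 (detected on at least 16 of 32 arrays) and -2.58 (1 probe per gene), and -2.52 to -2.37 with 1 array left out. For the difference between ages 244 passed, with 94 under median scaling, 143 without E18.5 control replicates 6 and 8, 430 with chip as a block and 458 with the replicate block; 1 member passed in the last 3 of these and with 1 probe per gene, 2 without P30 mutant replicates 1 and 2, and 0 to 1 with 1 array left out. The member median there was -0.0231 with median scaling and 0.177 with 1 probe per gene, and -0.0421 to 0.0799 with 1 array left out. The cause of these shifts was not tested, except that single chips hold fewer arrays and other filters other probes. At P30 same-numbered samples gave r from -0.06 to 0.43, over 0.1 in 6 of 8 pairs. Of the controls 4, and of the mutants 2, correlated best with their own number. Here too the check cannot show whether the numbers pair the samples. With the replicate block 659 probes of any gene passed at P30 in place of 519, and the block changed no other call of a member. Leaving out P30 mutants 1 and 2 and keeping all 48 probes were chosen after seeing the data. Dim signals limit P30, where 18 of the 48 probes were detected on 0 arrays.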
